A study of Danio rerio with 12 samples.

Results

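The RNA described here came from livers of zebrafish of a krasV12 transgenic line, 3 months old, that were given DMSO, the solvent, and nothing else. It was read from 3 of the 12 libraries of the study, those whose treatment label is DMSO. The other 9 libraries, 3 each from fish given TDCIPP (tris(1,3-dichloro-2-propyl)phosphate, a flame retardant), DOX, or TDCIPP with DOX, were not used, and no treated group is compared with the control. All 12 libraries come from the same transgenic line, so the control fish carry the transgene too. The labels do not give the cells in which it is driven, the sex or feeding state of the fish, or whether each library is 1 fish, and DOX is not spelled out. The SDs below are over the 3 libraries and may be technical in part.

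The vertebrate liver makes most proteins of blood plasma, packs lipid into lipoproteins, stores and releases glucose, breaks down amino acids and makes bile acids. Hepatocytes, its main cells, secrete much of what they translate, through the endoplasmic reticulum. In egg-laying vertebrates the liver also makes vitellogenins, large lipoproteins that travel in the blood to the ovary and become yolk, and oestrogen acting through its receptor switches their genes on.

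The libraries held 28621536, 29916645 and 34873112 reads assigned to genes in DMSO replicates 1, 2 and 3. Of 34028 genes in the table, 10907 reached 1 CPM (1 read per 1000000 assigned reads) in each of the 3 libraries and 9678 had no read in any. Over the 3986 genes with a mean of at least 10 CPM, Pearson's r of log2 CPM between libraries was 0.938 to 0.948, across genes, which are not independent replicates. A CPM counts reads, and a long transcript gives more reads than a short one at the same number of molecules. Levels were therefore also expressed as length-scaled counts, which are reads divided by the length column of the table and brought to a sum of 1000000 in each library (TPM). The table carries a further length implicitly. Dividing the deposited counts by the deposited FPKM gave 1 length per gene, equal to the length column for 11552 of 24350 genes and never longer. It was under 50% of the length column for 414 of the 3986 genes at 10 CPM or more. Which of the 2 lengths is nearer to the transcripts in these livers is not given in the sources used here, so group shares are given for both. Levels of single genes use the length column unless said otherwise. With the second length, levels of 375 of the 3986 genes moved by more than 1.5 times, and where the 2 lengths are equal the level was 0.73 times that on the length column, because the sum is shared out anew.

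A small number of genes held most of the RNA. The first 16 genes took 50% of the reads and the first 941 took 90%. On the length scale 43 genes took 50% and 664 took 90%, and with the length behind the FPKM the first 35 took 50%. By library the number of genes that held 50% of the reads was 9 to 22, and on the length scale it was 40 to 46. The highest gene alone held 23.4% of reads and 9.999% of length-scaled counts, and the 100 highest held 70.6% and 70.8%. With the vitellogenins set aside, 91 genes were needed for 50% of the remaining reads and 55 for 50% of the remaining length-scaled counts.

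**Figure D1:**
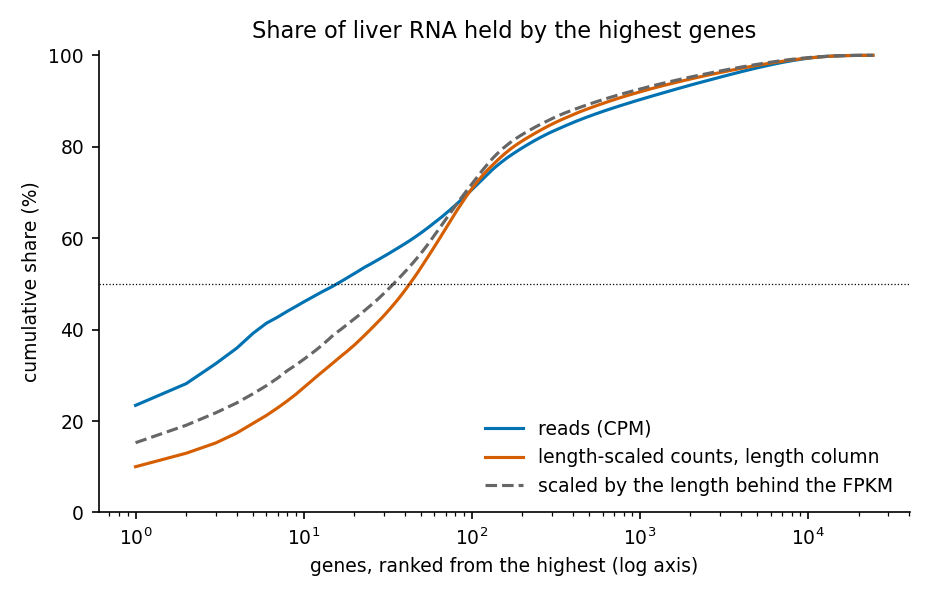
Cumulative share (%) of the mean control library held by genes ranked from the highest, for reads, for length-scaled counts and for the scale that uses the length behind the FPKM (rank on a log axis, dotted line at 50%). The curve of reads crosses 50% at 16 genes and that of length-scaled counts at 43, and the curves meet near 100 genes, where 70.6% and 70.8% are reached.

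Length changed which genes came first. Of the 25 highest genes by CPM, 17 were also among the 25 highest by length-scaled counts, and 19 of the 25 highest by the length column were among the 25 highest by the length behind the FPKM. The vitellogenin gene vtg1 was first on every scale. On the length scale fabp10a, the liver fatty acid binding protein that carries fatty acids and bile acids inside hepatocytes, came next, after being number 13 by CPM. Its level was 24515, 43943 and 20044 TPM in replicates 1, 2 and 3, highest in replicate 2. RPL41, a very short ribosomal protein, followed at 19840, 25509 and 22219 TPM. The high density lipoprotein component apoa2 stood at 31373, 17553 and 16156, highest in replicate 1, and the mitochondrially coded cytochrome oxidase subunit mt-co2 at 14951, 16762 and 14584 TPM. The exact order below vtg1 was loose. Of 25 pairs of neighbours in rank from the top, 3 kept their order in all 3 libraries, and in 2 pairs, vtg1 over fabp10a and rps2 over mt-co3, the ranges did not overlap.

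**Figure D2:**
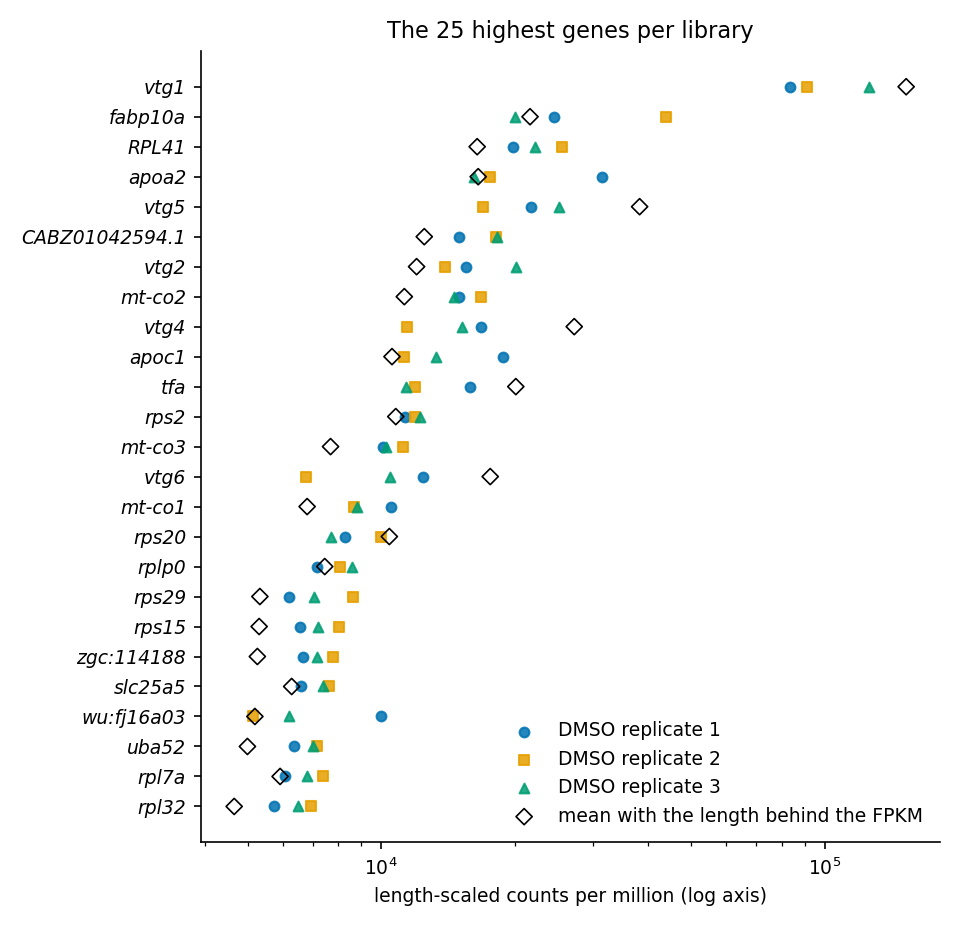
TPM (log axis) of the 25 highest genes in each of the 3 control libraries, with open diamonds for the mean when the length behind the FPKM is used. vtg1 lies apart from the rest in every library, fabp10a is highest in replicate 2 and apoa2 in replicate 1, and the diamonds of vtg1, vtg4, vtg5, vtg6, tfa and rps20 lie to the right of their points.

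Vitellogenin genes were the largest group by reads. The 8 genes took 37.5%, 37.1% and 46.4% of reads in replicates 1, 2 and 3, and 16.2%, 14.7% and 20.9% of length-scaled counts. With the length behind the FPKM the mean share was 26.2% ± 4.27. Replicate 3 was the highest on each scale. The family was uneven. vtg1 held 58.1% of its reads, vtg5 11.8%, vtg2 10.8%, vtg4 8.04%, vtg6 5.47%, vtg7 3.32% and vtg3 2.43%, while si:dkey-4c23.3 held 0.0312%. The level of vtg1 was 194203, 229365 and 279053 CPM, and that of vtg2 was 40796, 39804 and 50621 CPM. Those of vtg6 were 27553, 16313 and 22312 CPM. vtg1 and vtg2 were highest in replicate 3, whereas vtg4, vtg6 and vtg7 were highest in replicate 1. Among the 7 higher members the most even was vtg3, at 9767, 9132 and 10456 CPM, and the least even was vtg7, at 17384, 7614 and 15204. vtg3 codes for a short form without the phosphate-rich yolk domain. It lies on chromosome 11, and the other 7 genes lie on chromosome 22 on the same strand, within 169 kilobases by the coordinates of the table, whose genome build is not given in the sources used here. That stretch holds 9 entries of the table and took 39.4% ± 5.18 of all reads. Several of these genes are near-identical copies, and how the authors counted reads that match more than 1 of them is not known, so the split between members is less certain than their sum.

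The relative level of family members depended on the length used. The ratio of vtg1 to vtg2 was 5.39, 6.53 and 6.25 with the length column, in which vtg1 has 4415 bases and vtg2 has 5002. It was 11.3, 13.7 and 13.1 with the length behind the FPKM, where vtg1 has 2107 bases and vtg2 again 5002. The ratio of vtg1 to fabp10a was 3.41, 2.07 and 6.26 on the first scale and 7.14, 4.34 and 13.1 on the second. vtg1 thus exceeded fabp10a in every library on either scale, by a factor that differed more between libraries than between scales.

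**Figure D3:**
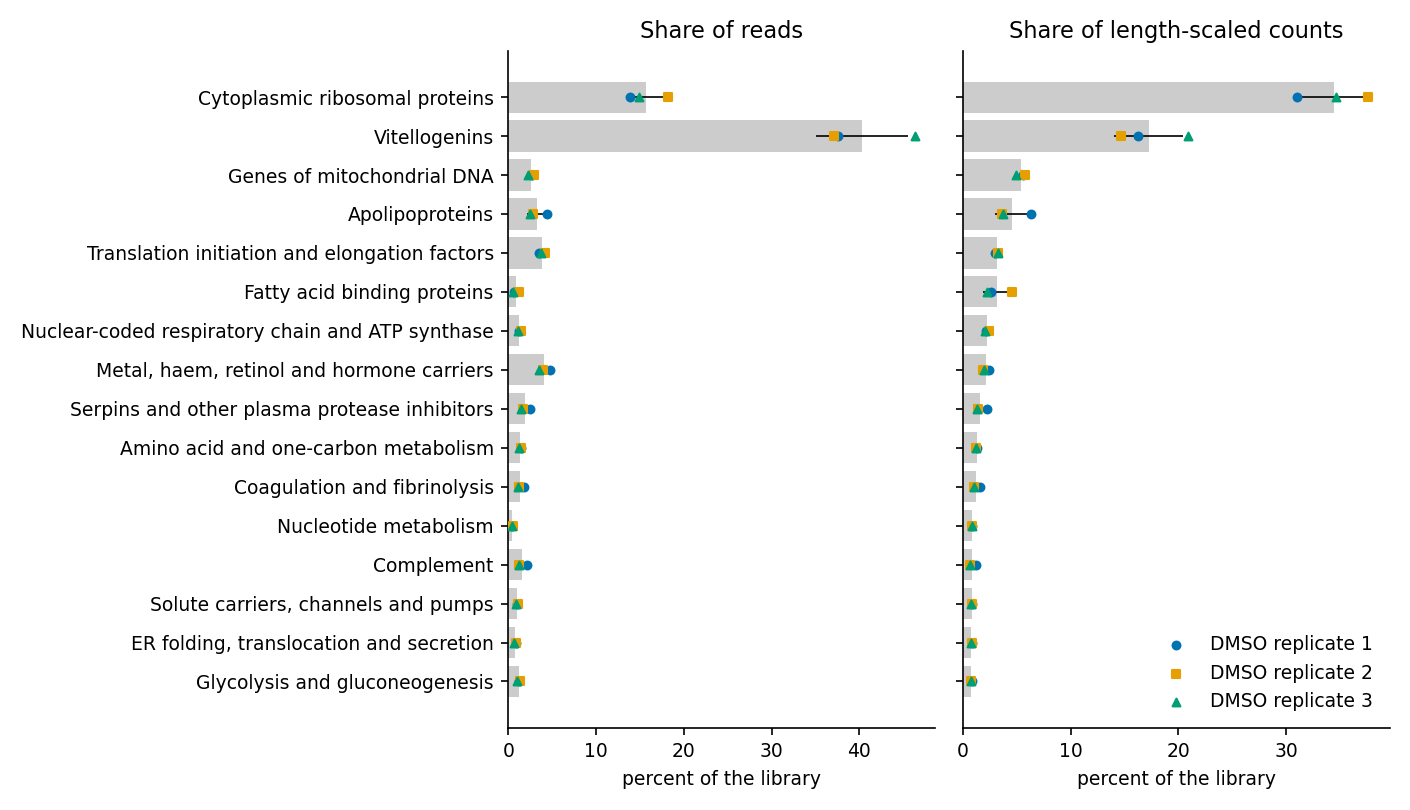
Share (%) of reads and of length-scaled counts in each control library for the 16 gene classes with the highest mean share of length-scaled counts. Bars are means, lines are SDs over 3 libraries and symbols are single libraries. Vitellogenins lead by reads (mean 40.3%) and cytoplasmic ribosomal proteins by length-scaled counts (mean 34.4%).

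Ribosomal proteins were the largest group once length was taken out. The 89 entries for proteins of the cytoplasmic ribosome, which translates nuclear-coded messages, took 13.9%, 18.2% and 14.9% of reads and 31.0%, 37.6% and 34.7% of length-scaled counts. With the length behind the FPKM their mean share was 29.8% ± 3.23, and in replicate 3 it was 29.3%, below the 30.97% of the vitellogenins on that scale. Replicate 2 was highest and replicate 1 lowest on all of these scales. Of the 100 highest genes by length-scaled counts, 62 were ribosomal proteins. Most proteins of this group, though not all, are present in equal numbers per ribosome, and some have more than 1 entry. Levels within the group differed widely at the extremes and less in the middle. The 82 entries at 500 TPM or more had a median of 4106 and quartiles of 2390 and 5379, and the ratio of the quartiles was 2.25, or 1.91 with the length behind the FPKM. The median was 3870 for 34 entries of the small subunit and 4202 for 46 of the large one. RPL41 at 22523 ± 2847 and rps2 at 11804 ± 469 were the highest, and rpl22 at 529 ± 46.9 TPM was the lowest of the 82, though with the length behind the FPKM its mean was 1050.4.

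The other 7 entries were far lower. One, CABZ01079011.1, stood at 130 TPM, and 6 stood under 5 TPM: both entries named rpl26 (1.88 and 0.730), an rpl37 entry on chromosome 2 (1.84), rpl9 (1.68), rps8b (2.35) and si:dkey-159f12.2 (3.70). Ribosomal protein genes have many near-identical copies, and reads that match more than 1 place may have been dropped or assigned to another entry, so a low level of a single entry is uncertain. Other parts of the translation machinery were also high. The elongation factor eef1a1l1, which delivers aminoacyl-tRNA, stood at 12030, 14127 and 12275 CPM, and eef2b, the translocation factor, at 4285, 4478 and 5674 CPM. tpt1, a small translationally controlled protein, stood at 5040, 5764 and 6538 TPM, and rack1, a scaffold of the small subunit, at 3324, 3711 and 3650. As a class, 93 translation factors took 3.79% ± 0.319 of reads and 3.18% ± 0.179 of length-scaled counts.

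Genes of mitochondrial DNA held 2.68%, 2.91% and 2.26% of reads and 5.54%, 5.77% and 4.97% of length-scaled counts, over 13 protein-coding genes. The 3 core subunits of cytochrome oxidase, the enzyme that passes electrons to oxygen, came first. mt-co2 was the highest, then mt-co3 at 10101, 11215 and 10261 TPM and mt-co1 at 10506, 8669 and 8810. In replicate 1 mt-co1 exceeded mt-co3, and in replicates 2 and 3 it did not. Subunits of complex I ranged from mt-nd3, at 3386 ± 192, to mt-nd5, at 558 ± 130, and mt-atp8, a subunit of ATP synthase, was the lowest of the 13 at 187 ± 34.7 TPM. The nuclear-coded genes of respiratory chain, ATP synthase and their carriers, 133 in number, took 2.203% ± 0.168 of length-scaled counts. Their highest member was slc25a5, which exchanges ADP for ATP across the inner membrane, at 6584, 7619 and 7378 TPM. ucp1, an uncoupling protein of the same carrier family, stood at 1877, 1790 and 957 TPM, lowest in replicate 3, and its mean of 1542 TPM became 2762 with the length behind the FPKM.

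Genes of blood plasma proteins were the next large block. Across 6 classes and 212 genes they took 15.7%, 10.8% and 9.67% of reads and 14.3%, 8.78% and 8.94% of length-scaled counts. The classes were set by gene name, and the carrier class also holds the intracellular rbp2a. These shares are therefore not of plasma proteins alone. With the vitellogenins added the share was 52.4% ± 4.13 of reads and 27.9% ± 3.87 of length-scaled counts. Replicate 1 held the highest share of each of the 6 classes by reads.

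Among lipid carriers, a few of the 24 apolipoprotein genes held most of the length-scaled counts. The highest were apoa2, apoc1, a component of several lipoproteins that modulates lipid exchange, at 18816, 11248 and 13287 TPM, and apoa1b, the main protein of high density lipoprotein in mammals, at 6767, 4098 and 3402. The mean of apoa1b was 4756 TPM, and 7150.4 with the length behind the FPKM. The second copy, apoa1a, stood at 2263, 1039 and 1464 TPM. Large apolipoprotein B, the backbone of very low density lipoprotein, was far higher by reads than per length: apobb.1 was number 29 by CPM, at 4324, 2687 and 2505, and number 208 by length-scaled counts, at 642, 368 and 388 TPM. Of the apolipoprotein E copies, which direct lipoproteins to their receptors, apoeb stood at 386, 118 and 171 CPM, and apoea stood at 0.908, 0.669 and 88.5 CPM, nearly all of it in replicate 3.

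Carriers of metal, haem, retinol and hormones took 4.03% ± 0.692 of reads. tfa, transferrin, which carries iron in plasma, gave most of that, at 40694, 33174 and 27927 CPM. Per length it was at 15857, 11913 and 11366 TPM, and with the length behind the FPKM its mean was 20100. Ceruloplasmin (cp), the copper-carrying ferroxidase, stood at 1435, 795 and 956 TPM, and its mean of 1062 TPM became 1725 with the length behind the FPKM. rbp4, which carries retinol in plasma, stood at 1170, 998 and 1718, and the intracellular retinol-binding protein rbp2a at 1855, 2381 and 1642 TPM. hpx, hemopexin, which binds free haem, stood at 286, 392 and 408 TPM. Transthyretin (ttr), a thyroid hormone carrier, was lower, at 122, 63.0 and 92.9 TPM.

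Protease inhibitors followed. The alpha-1-antitrypsin genes serpina1l and serpina1, whose products in mammals restrain neutrophil elastase, stood at 5318, 2852 and 2448 and at 4307, 2848 and 1247 TPM. They may share reads. fetub and ahsg1, of the fetuin family, stood at 3114, 2208 and 2965 and at 2484, 1575 and 1713 TPM. The inter-alpha-trypsin inhibitor precursor ambp stood at 1420, 1046 and 1049 TPM. In coagulation, the 3 fibrinogen chains led. fgb, fgg and fga stood at 2836 ± 744, 2172 ± 686 and 2139 ± 797 TPM, and each was highest in replicate 1. With the length behind the FPKM the means were 4057, 2267 and 3062, so that fga came above fgg. Kininogen (kng1) stood at 952 ± 139, prothrombin (f2) at 837 ± 205 and plasminogen (plg) at 791 ± 249 TPM.

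Complement took 2.08%, 1.23% and 1.23% of reads. c3a.1, a copy of the central component C3, stood at 7847, 4994 and 4796 CPM and was number 15 by CPM and number 99 by length-scaled counts. The pore-forming component c9 stood at 2057, 632 and 1003 TPM, cfhl4 at 1402, 740 and 721, and factor B (cfb), the protease of the alternative pathway, at 1032, 576 and 553. The plasma level of acute phase proteins changes with inflammation in mammals. Among their genes, the higher of 2 entries of the pentraxin crp2 was steady, at 2082, 1664 and 1808 TPM. Together the 2 entries stood at 2159, 1680 and 1856 TPM. Other members were not steady. The entry si:ch211-270n8.1, annotated with a pentraxin domain, stood at 2111, 182 and 296, and crp at 373, 39.0 and 21.8 TPM. Serum amyloid A (saa) stood at 8.01, 5.32 and 2.85, and hepcidin (hamp), the iron-regulating hormone, at 19.8, 2.86 and 2.44 TPM. In each of these uneven members replicate 1 was the highest library.

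The machinery that feeds secretion was expressed at moderate level. Genes of folding, translocation and transport in the endoplasmic reticulum, 134 in number, took 0.782% ± 0.0523 of length-scaled counts, with 118 at 1 CPM or more in each library. Subunits of the translocon-associated complex led, with ssr2 at 759, 721 and 756 TPM and ssr3 at 655, 592 and 674. sec61a1, which forms the channel itself, stood at 522, 605 and 618 TPM. xbp1, a transcription factor that expands the secretory pathway, stood at 587, 615 and 411, and the disulfide isomerase p4hb at 442, 414 and 353 TPM. The chaperones hspa5 and hsp90b1 of the same compartment were lower, at 137 ± 17.9 and 130 ± 24.8 TPM. In the cytosol, hsp90ab1 stood at 1384 ± 92.9 TPM, or 2024 with the length behind the FPKM, while the heat-inducible genes hsp70.1, hsp70.2 and hsp70.3 each stayed under 0.4 CPM in every library.

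In most of 9 complexes, transcripts of the subunits had levels within a few-fold of each other. The highest to lowest ratio, averaged over libraries, was 1.37 for the 3 fibrinogen chains, 1.94 for the 3 chains of complement C8, 1.66 for the 3 chains of C1q and 1.69 for the 3 mitochondrially coded cytochrome oxidase subunits. It was 2.27 for the electron transfer flavoprotein, 2.47 for the 4 translocon-associated proteins and 2.58 for 3 subunits of the Sec61 channel. It reached 4.94 for succinate dehydrogenase and 22.95 for elongation factor 1, where eef1a1l1, the subunit that binds tRNA, stood far above eef1b2. The length mattered here too. With the length behind the FPKM the ratio for succinate dehydrogenase was 10.5 and that for elongation factor 1 was 10.7, while fibrinogen moved to 1.81 and C8 to 1.48.

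Amino acid and one-carbon metabolism took 1.34% ± 0.0985 of reads and 1.28% ± 0.0578 of length-scaled counts. The class total was even. Of its 75 genes at 10 CPM or more, 12 had a highest library more than 2 times the lowest, a share near the 15.2% of all 3986 such genes. ahcy, which hydrolyses S-adenosylhomocysteine and so keeps methylation going, was both high and even, at 2441, 2327 and 2566 TPM. hpda, of tyrosine breakdown, stood at 2038, 1863 and 1966 TPM. tdo2a, which opens the ring of tryptophan, stood at 726, 815 and 845, and phenylalanine hydroxylase (pah) at 398, 309 and 412 TPM. bhmt, which remethylates homocysteine with betaine, was less even than these, at 1599, 766 and 634 TPM.

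Fish excrete most waste nitrogen as ammonia. Of 8 urea cycle genes, all matched in the table, 6 were under 1 CPM in every library. Low levels were common in the whole table, where 13702 of 34028 genes reached 1 CPM in any library. cps1, the first enzyme of the cycle, ASS1, arg1, the liver arginase of mammals, and nags had no read in any of the 3 libraries, which allows up to 0.1048, 0.1003 and 0.0860 CPM, counting error only. otc had 0, 0 and 0.0287 CPM. arg2, the mitochondrial arginase, reached 149, 201 and 198 CPM, and slc25a15b, an ornithine carrier, passed 1 CPM in replicate 2 only. glud1b, the glutamate dehydrogenase that releases ammonia, stood at 552, 536 and 439 CPM. Uric acid breakdown was present, with urate oxidase (uox) at 768, 729 and 741 and urad, the next but one enzyme of that route, at 95.6, 98.5 and 78.6 TPM. The ammonia channels rhbg and rhcgb were at or near 0, with at most 0.0349 CPM.

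Of a list of 15 genes of gluconeogenesis and glycogen, 14 matched and 13 reached 1 CPM in each library. Glucose 6-phosphatase g6pca.2, which frees glucose for release, stood at 521, 998 and 1010 TPM, and fbp1b, fructose bisphosphatase, at 668, 456 and 530. pck1, the cytosolic enzyme that starts gluconeogenesis from oxaloacetate, stood at 64.6, 309 and 195 TPM. gck, the glucokinase that traps glucose after a meal, stood at 0.825, 0.164 and 1.94 TPM. Phosphofructokinase pfklb stood at 13.2, 14.96 and 17.3 TPM, which put fbp1b 50.6, 30.5 and 30.7 times above it. At the lower end of glycolysis pklr, pyruvate kinase, was high and even, at 1150, 1104 and 1106 TPM. Glycogen phosphorylase pygl stood at 203, 117 and 183 and glycogen synthase gys2 at 62.2, 41.0 and 43.6 TPM. ldhbb, a lactate dehydrogenase, was uneven, at 318, 63.5 and 198 TPM.

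Lipid metabolism was led by a desaturase. fads2, which makes highly unsaturated fatty acids, stood at 1533, 1698 and 1776 TPM and was the highest gene of its class. The genes that build fatty acids from acetyl-CoA were far lower than fads2 on the length scale. fasn, fatty acid synthase, stood at 10.5, 7.88 and 7.12, and acaca, acetyl-CoA carboxylase, at 18.4, 16.9 and 21.4 TPM. By CPM fasn stood at 55.3, 45.2 and 36.0 and acaca at 82.1, 82.0 and 91.8. The means were 8.49 TPM for fasn and 18.9 TPM for acaca, and with the length behind the FPKM they were 13.9 and 31.0. The stearoyl-CoA desaturase scd stood at 0.605, 0.647 and 0.0740 TPM. In each library fads2 was 147 to 249 times fasn, or 67.5 to 115 times with the length behind the FPKM. Genes of fatty acid oxidation took 0.207% ± 0.0265 of length-scaled counts, led by acadm, a medium-chain acyl-CoA dehydrogenase, at 252, 230 and 218 TPM. Apart from fabp10a, the fatty acid binding protein fabp3, best known from muscle and heart in mammals, was abundant at 1084, 1145 and 940 TPM. Sterol synthesis was low, with hmgcra, its rate-limiting enzyme, at 27.1, 20.7 and 16.1 TPM.

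Of 11 matched bile acid genes, 9 reached 1 CPM in each library. cyp7a1, the rate-limiting enzyme of bile acid synthesis, stood at 141, 186 and 203 TPM, and cyp8b1, a sterol hydroxylase, at 59.6, 47.2 and 36.5. The export pump abcb11b stood at 48.9, 30.5 and 30.1, and the organic anion transporter slco1d1, of the uptake family, at 121, 83.7 and 96.6 TPM. slc10a1, the sodium-dependent bile acid uptake carrier of mammals, had 0.0349, 0 and 0 CPM. The receptor nr1h4 (FXR) was even, at 25.2, 21.2 and 26.2, and nr0b2a, which it induces in mammals, stood at 0.217, 0 and 4.57 TPM.

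Detoxifying genes were spread over many members. Cytochrome P450 genes of families 1 to 4 took 0.175% ± 0.0304 of length-scaled counts, with cyp2ad2 at 539, 387 and 444 and cyp1a, which planar aromatic compounds induce, at 328, 204 and 294 TPM. The mean of cyp2ad2 was 457 TPM, and 696 with the length behind the FPKM. Conjugation and other xenobiotic enzymes took 0.666% ± 0.0267, led by the alcohol dehydrogenase adh8a at 1374, 2189 and 1734 TPM. gpx4a, which reduces lipid peroxides, stood at 1078, 750 and 547, and catalase (cat) at 341, 236 and 268 TPM.

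Regulators of hepatocyte genes stood far below the highest secreted products, though not below all of them. The CCAAT-binding factor cebpd was the highest, at 328, 289 and 394 TPM. esr1, the oestrogen receptor through which vitellogenin genes respond, stood at 122, 178 and 141, above esr2b at 23.5, 38.8 and 22.1 and esr2a at 6.05, 7.73 and 4.64 TPM. esr1 was 4.60 to 6.37 times esr2b, or 5.88 to 8.14 times with the length behind the FPKM, and the libraries' order for esr1, with replicate 2 highest, was not their order for vitellogenin reads, where replicate 3 was highest. hnf4a, a master regulator of hepatocyte genes, was even at 42.2, 41.1 and 37.1 TPM. prox1a stood at 21.0 ± 2.32, foxa3 at 29.1 ± 8.78 and cebpa at 32.3 ± 7.51 TPM. Of 69 regulators in the class, 55 reached 1 CPM in each library and 3 had no read. Of secreted hormones, igf2a and igf1, insulin-like growth factors, stood at 257, 112 and 176 and at 95.4, 135 and 94.3 TPM, and igf2a was above igf1 in replicates 1 and 3 only, though in all 3 with the length behind the FPKM. dio2, which activates thyroid hormone, stood at 621, 956 and 485 TPM. Genes of cell division were low, with mki67 at 1.12, 1.304 and 1.23 CPM, top2a at 1.75, 0.334 and 1.09 CPM and pcna at 7.27, 9.09 and 4.56 CPM.

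The share of genes without a class was 12.9% ± 0.912 of reads and 13.6% ± 0.779 of length-scaled counts. A few short entries led it. CABZ01042594.1, of 393 bases on an unplaced scaffold, stood at 14992, 18150 and 18261 TPM, number 6 of all genes. The table annotates it with a von Willebrand type D domain, and its name put it in no class. That domain is given for 28 entries, 2 of them among the 8 vitellogenins, so it is not particular to that family. Whether the entry belongs with a vitellogenin gene was not tested, and the vitellogenin shares do not include it. wu:fj16a03, of 399 bases on chromosome 13, stood at 10007, 5147 and 6206, and Novel01165, a gene model without an Ensembl entry, at 1985, 2594 and 2367 TPM. All gene models without an Ensembl entry together held 0.458% of reads.

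Short genes gained and long genes lost when length was taken into account. Genes over 4000 bases took 54.5% of reads and 22.4% of length-scaled counts, and those of 1000 bases or less took 17.4% and 48.5%. Of the 54.5%, vitellogenins gave 40.3% and other genes 14.2%. With the length behind the FPKM, genes over 4000 bases took 8.20% of reads. Among genes in the first 200 by CPM or by length-scaled counts, the largest falls in rank from the first scale to the second were those of apoba, from number 145 to 473, and aldh1l1, a folate enzyme, from 185 to 380. The largest rises among them were those of mt-nd4l, from number 495 to 168, and BX908782.3, from 429 to 150, an entry of 285 bases with a CD59 domain. hspa8, the constitutive cytosolic chaperone, fell from 147 to 326, though with the length behind the FPKM it was number 208.

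The deposited gene ontology columns gave a different view of the same reads. The term for structural constituents of the ribosome, on 365 genes, held 10.8% ± 1.56 of reads and 23.2% of length-scaled counts, against 15.7% and 34.4% for the 89 ribosomal protein entries taken by name. Lipid transporter activity, on 38 genes with all 8 vitellogenins among them, held 41.0% ± 5.14 of reads. RNA polymerase II transcription cofactor activity, on 119 genes, held 25.7% ± 4.08 of reads, but 23.4% came from vtg1, to which the table gives that term. Without vtg1 the term held 2.27%. The component term for the mediator complex, on 122 genes, had the same shape, with 25.7% of reads and 2.27% without vtg1.

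Markers of hepatocytes were present in every library, as the liver label requires. All 10 listed reached 1 CPM in each, and together they held 71667, 60315 and 46397 CPM. Defining markers of other cell types of the liver differed widely in level. The highest of them were anxa4 of bile duct and, at 185, 162 and 283 CPM, hbaa1 of red cells. The bile duct markers anxa4, epcam and sox9b were present, anxa4 at 107 to 173 CPM and epcam at 4.82 to 8.94 CPM. Of 4 defining endothelial markers 3 reached 1 CPM in each library, among them kdrl and cdh5, the receptor and the cadherin of vessels, with cdh5 at 10.7 to 12.5 CPM. stab2, a scavenger receptor of sinusoids, stood at 0.419 to 0.545 CPM, and 6 of all 10 endothelial markers reached 1 CPM in each library. For stellate cells and fibroblasts, pdgfrb stood at 1.92 to 4.85 CPM while hand2 and dcn did not reach 1 CPM in each library. Macrophage markers mpeg1.1, csf1ra and marco stood at 8.11 to 14.7, 9.61 to 15.9 and 3.56 to 28.6 CPM, with replicate 3 the highest for each. All 11 macrophage markers summed to 157, 232 and 295 CPM, of which cd74a alone gave 109, 181 and 181 CPM. Of the 11, grn1 and timd4 were highest in replicate 1. Of 3 defining neutrophil markers none reached 1 CPM in each library, and mpx stood at 11.7, 19.0 and 0.860 CPM. Red cell markers summed to 319, 268 and 513 CPM, led by hbaa1. No defining marker of T and NK cells or of B cells reached 1 CPM in all 3 libraries, and cd8a had no read. In bulk tissue, fewer cells of a type and less RNA per cell cannot be told apart.

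Markers of other organs differed between the libraries. All 14 exocrine pancreas markers that matched reached 1 CPM in each library, and their sum was 454, 715 and 2000 CPM. The trypsin gene prss1 stood at 89.0, 133 and 352 CPM and the chymotrypsin gene ctrb1 at 46.3, 80.1 and 298 CPM. Pancreas lies along the gut near the liver in zebrafish. Intestine markers summed to 14.1, 19.9 and 313 CPM. The chitinase genes chia.1 and chia.2 had no read in replicates 1 and 2, which allows up to 0.1048 and 0.1003 CPM, and stood at 168 and 49.8 CPM in replicate 3. vil1, which builds the brush border, stood at 0.664, 0.0334 and 12.1 CPM. Replicate 3 was thus the highest library for both lists, and the part of these cells in its other values was not tested. Endocrine pancreas markers did not share that order, with a sum of 9.99, 14.3 and 2.67 CPM. Oocyte markers summed to 48.3, 13.5 and 30.4 CPM, highest in replicate 1, and of 8 muscle markers none reached 1 CPM in all libraries.

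The spread between libraries was larger than counting error for nearly all genes. Over the 3986 genes at 10 CPM or more, the median SD of log2 CPM was 0.27, against 0.06 from counting error alone, and 97.5% of genes exceeded their counting error. The highest library was more than 2 times the lowest for 605 genes (15.2%), and all 3 lay within 1.2 times for 604 (15.2%). The CPM of all other genes also moves with the share of reads that the vitellogenins take, 37.5%, 37.1% and 46.4% in replicates 1, 2 and 3. That part of the spread is not set apart in these values. Gene classes differed in this. The median SD was 0.21 for ribosomal proteins, 0.22 for translation factors, 0.22 for fatty acid oxidation and 0.23 for the nuclear-coded respiratory chain. It was 0.48 for complement, 0.51 for apolipoproteins, 0.54 for ribosome assembly, 0.85 for acute phase proteins and 1.14 for exocrine pancreas enzymes.

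Of the 569 genes at 100 CPM or more, the one that varied most was si:dkey-14d8.6, annotated to the dermatopontin family, at 358, 2.81 and 10.9 CPM. rnasel2, a secreted ribonuclease, stood at 1233, 77.5 and 168 CPM, and the immediate early gene egr1 at 276, 207 and 27.9 CPM. serpina7, a serpin, stood at 690, 113 and 88.2 CPM, and igfbp1a, which binds insulin-like growth factors, at 271, 110 and 737 CPM. The order of libraries thus differed from gene to gene. At the other end were ssr3 at 311, 305 and 307 CPM, ahcy at 2469, 2554 and 2486 CPM, the initiation factor subunit eif3s10 at 436, 443 and 426 CPM, the glutathione transferase gstt1a at 272, 268 and 260 CPM, and eef1b2 at 383, 400 and 396 CPM. By CPM the SD of ssr3, 0.01 on the log2 scale, was no larger than its counting error. CPM also depends on how many reads the vitellogenins take in a library. On the length scale ssr3 was less even, at 655, 592 and 674 TPM.

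**Figure D4:**
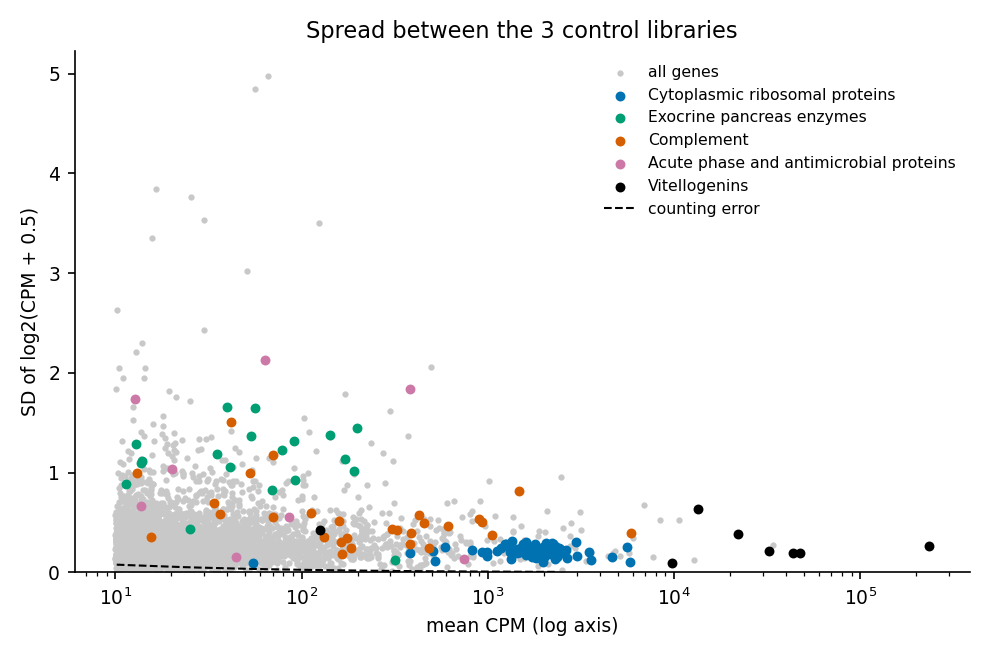
SD over the 3 control libraries of log2 CPM with a pseudocount of 0.5 CPM (y axis) against mean CPM (log x axis) for genes of at least 10 CPM, with 5 gene classes in colour and the running median of the counting error as a dashed line. Ribosomal proteins form a flat band near 0.21, while most exocrine pancreas enzymes lie above 0.8.

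Each library was highest for some gene classes, and those named here were picked from these same values. Shares were recomputed outside the vitellogenins, because a library with more vitellogenin reads has less room for all else. Of the 36 other classes, 13 were highest in replicate 1, 13 in replicate 2 and 10 in replicate 3. Replicate 1 was highest for the 6 plasma protein classes, for example apolipoproteins at 7.08%, 4.49% and 4.49% of those reads, complement at 3.32%, 1.95% and 2.29% and acute phase proteins at 0.350%, 0.159% and 0.187%. Of the 116 genes of these 6 classes at 10 CPM or more, 95 were highest in replicate 1 by CPM, 88 outside the vitellogenins and 85 with TMM factors. Over all 3986 genes the same library was highest for 44.8%, 34.6% and 26.4%. Replicate 2 was highest for ribosome assembly, at 0.702%, 0.996% and 0.708%, and all 56 genes of that class, which process and export ribosomal subunits, were highest there on each of the 3 scales. Over all 3986 genes replicate 2 was highest for 42.5% by CPM, 35.8% outside the vitellogenins and 48.7% with TMM factors. Among them npm1a, a nucleolar chaperone, stood at 124, 289 and 97.1 CPM and ncl, nucleolin, at 356, 548 and 280 CPM. Ribosomal proteins were highest in replicate 2 for 82 of 83 genes by CPM, but outside the vitellogenins this was 63 of 83 and with TMM factors 81 of 83. Outside the vitellogenins the shares came closer, since replicate 3 rose from 14.9% to 27.8% and replicate 2 from 18.2% to 28.9%. Replicate 3 was highest for exocrine pancreas enzymes, at 0.145%, 0.187% and 0.554%, and for red cell proteins, at 0.0549%, 0.0456% and 0.102%. Of 19 exocrine pancreas genes at 10 CPM or more, 17 were highest there by CPM and 18 outside the vitellogenins. Over all 3986 genes replicate 3 was highest for 12.7% by CPM and 29.5% outside the vitellogenins.

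**Figure D5:**
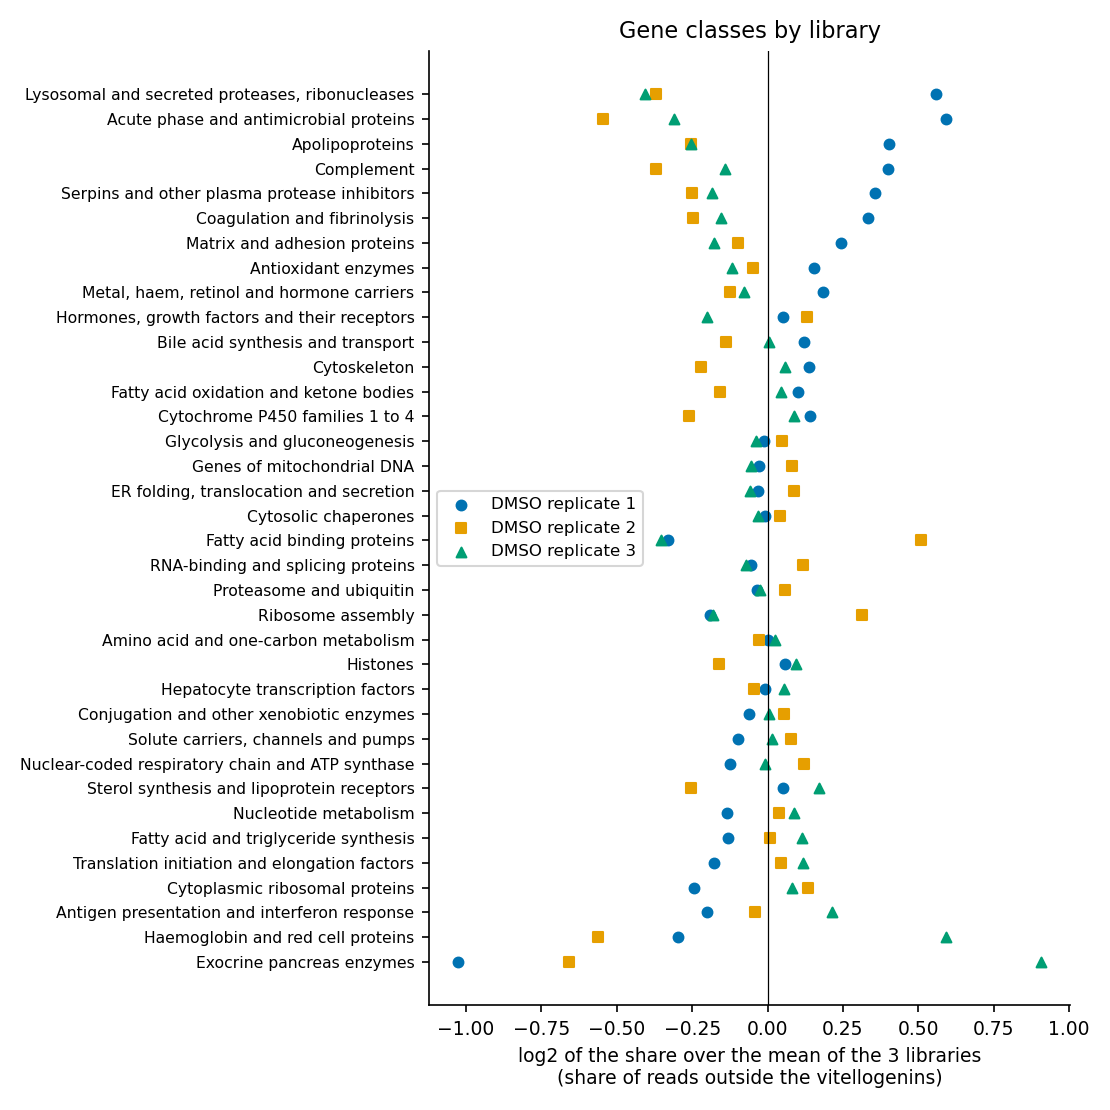
log2 ratio of each library's share to the mean of the 3 control libraries (x axis) for 36 gene classes, in reads outside the vitellogenins. Replicate 1 lies to the right for plasma protein classes, replicate 2 for fatty acid binding proteins and ribosome assembly, and replicate 3 for exocrine pancreas enzymes and red cell proteins.

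A list of genes of the glucocorticoid response, chosen after these values had been seen, held 10 genes that cortisol or fasting induces in vertebrates and 2 receptors. Of the 10, 9 were lowest in replicate 1, and 8 were highest in replicate 3 by CPM or 9 outside the vitellogenins. With the 2 receptors counted, 9 of 12 were lowest in replicate 1 and 2 of 12 were highest there. Of all 10907 genes at 1 CPM in each library, 14.3% were lowest in replicate 1 by CPM and 22.8% outside the vitellogenins, and 16.9% and 32.7% were highest in replicate 3. Of 12 acute phase genes that reached 1 CPM in each library, 11 were highest in replicate 1 by CPM, against 47.3% of all genes. Of the 116 genes of the 6 plasma protein classes at 10 CPM or more, 81.9% were highest there by CPM. The 2 sets share genes, for example fga, fgb and serpina7, so this order is not particular to the acute phase list. This acute phase list too was edited after the values were seen, so the counts of both lists are descriptions only. The acute phase list was not counted outside the vitellogenins. The glucocorticoid-responsive genes fkbp5, tsc22d3 and klf9 stood at 76.5, 227 and 272 CPM, at 177, 294 and 468 CPM and at 25.5, 47.2 and 65.6 CPM. tat, tyrosine aminotransferase, stood at 455, 604 and 703 CPM and per1b, a clock gene that glucocorticoids induce in mammals, at 42.4, 61.3 and 79.0 CPM. These 5 were lowest in replicate 1 and highest in replicate 3. pck1, at 90.6, 470 and 262 CPM, was also lowest in replicate 1, but igfbp1a was lowest in replicate 2. The genes of the glucocorticoid receptor, nr3c1, and of its relative nr3c2 stood at 25.1, 18.6 and 19.7 CPM and at 2.97, 1.37 and 2.06 CPM, both highest in replicate 1. The labels give neither feeding nor hour of collection, and no cause of these differences was tested.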

How the data were processed

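The deposited table holds whole-number read counts per gene and FPKM values per gene for each library, made by the authors, together with a gene length, names and annotation, per the file headers. Reads were aligned with HISAT, per the submitters' processing notes. The sources used here do not give its version, how reads were counted, or which build and gene models were used. Per the labels' protocols, RNA was extracted with Trizol and libraries were made with a NEBNext Ultra kit.

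From the counts of the 3 DMSO libraries, CPM and length-scaled counts were computed (Python 3.11.15, pandas 2.3.3). The deposited FPKM served only to derive the second length and the alternative scale. No test between groups was made. Genes without a name in the table took the symbol of a reference table of gene identifiers where it had one (5571 of 8443), and 17 of 19 names that a spreadsheet had turned into dates were restored. Genes were placed in 37 classes by name patterns (3334 genes, the first matching class counting), and marker lists were matched by name. TMM factors came from edgeR 4.0.16 and size factors from DESeq2 1.42.0 over the 3 libraries. Detection meant 1 CPM in each library. Spread was the SD of log2 CPM with a pseudocount of 0.5 CPM, and counting error was taken from the read number. The limit that a count of 0 allows is 3 reads and covers counting error only. The calculation of shares and levels was checked on simulated counts with known values, drawn and scaled with the same length column. This checks the arithmetic only, not the choice of length, reads that match several genes or the spread between libraries. The value columns matched to no sample numbered 0.

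The subject, classes, marker lists and the rule for naming genes were chosen with earlier results of these data known, and the class patterns and pathway lists were edited after the values were seen. The rule named the 25 highest genes on each scale, up to 6 members of a class by length-scaled counts, the 10 most and 10 least variable genes of at least 100 CPM, the 10 largest moves in rank each way among the first 200, and defining markers with up to 3 others. Not every gene it names is printed, and genes of the urea, uric acid, glucose, lipid, bile acid, oestrogen, division, glucocorticoid and acute phase lists and the heat shock genes, apoea, ttr, egr1, Novel01165 and CABZ01079011.1 were named beside it after their values were seen. Sequences are not analysed here.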

Additional observations from a re-analysis of the deposited data

How the results depend on the processing

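With the vitellogenins left out of the denominator, mean shares of reads rose to 26.3% for ribosomal proteins, 4.37% for mitochondrial DNA and 5.35% for apolipoproteins, and shares of length-scaled counts to 41.6% for ribosomal proteins and 6.55% for mitochondrial DNA, as fewer reads remain below the line. The number of genes that hold 50% of the reads rose from 16 to 91. An effective length (200 bases taken off, at least 100) gave vitellogenins 13.9% of length-scaled counts. The length behind the FPKM, added after seeing the data, gave them 26.2%, ribosomal proteins 29.8% and mitochondrial DNA 3.96%, and changed 18 of 37 class shares by more than the SD over libraries. At 5 CPM, 5457 genes counted as detected, and with each library left out at 1 CPM, 11130 to 11490. Leaving out each library in turn gave vitellogenins 37.3% to 42.0% of reads and 15.5% to 18.5% of length-scaled counts, ribosomal proteins 14.4% to 16.6% and 32.8% to 36.1%, mitochondrial DNA 2.47% to 2.80% and 5.25% to 5.65%, apolipoproteins 2.62% to 3.63% and 3.67% to 4.99%. The genes holding 50% were then 13 to 20 by reads and 42 to 45 by length-scaled counts. All 33 named levels in CPM moved by less than their SD with TMM factors and with DESeq2 size factors. These levels are means over the 3 libraries, and such factors raise some libraries and lower others. A mean could therefore hardly move by its SD, and this step says little about how firm the levels are. Between length-scaled counts and CPM, 26 of 33 ranks moved by over 1.5 times. Leaving the exocrine pancreas enzymes out of the denominator, added after seeing the data, moved none of 36 class shares by more than 1 SD. These enzymes held 0.0906%, 0.118% and 0.297% of reads in replicates 1, 2 and 3, so this step could hardly move a share. Other transcripts of pancreas or gut cells stay in the counts, and their part was not tested. RefSeq coding lengths were not run, since no transcript table was used here. No paired analysis was possible because only 1 group was used. With 3 libraries the SDs are themselves imprecise.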
